A study of Mus musculus with 407 samples.

Results

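The 10 genes described here are immediate early genes: Fos, Fosb, Jun, Junb, Atf3, Egr1, Egr2, Egr3, Nr4a1 and Ier2. They were chosen by symbol, and all 10 were found among the 24458 gene symbols of the count tables. Total RNA was sequenced from 4 muscles of C57BL/6J mice of both sexes: diaphragm and 3 limb muscles, the gastrocnemius, the soleus and the tibialis anterior. The mice were 6, 12 or 18 months old, or 21, 24 or 27 months. The 407 libraries fall into 48 groups by muscle, sex and age, with 6 to 10 libraries in each group. For the male diaphragm at 21 months the labels give 7 libraries and the study's list of samples 6. For the male tibialis anterior at 18 months the labels give 7 and that list more. The labels were used. No treatment or genetic change is given for any mouse, and all were killed with carbon dioxide. By the study's methods, each age group was dissected on a single day within set hours, and it is not stated whether males and females of an age shared that day. Age and collection day cannot be told apart in any result below, and the same may hold for sex and day. Which libraries share a mouse is not given in the labels. The comparisons ask how the level of each gene differs between muscles, with age and between the sexes.

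Immediate early genes are transcribed within minutes of a stimulus without the need for new protein, and their messages are short-lived. In skeletal muscle they are known for responding to contraction, stretch, injury, growth factors, stress hormones and heat. Fos, Fosb, Jun and Junb encode subunits of the AP-1 transcription factor, and Atf3 encodes a stress-induced bZIP factor that pairs with Jun proteins. Egr1, Egr2 and Egr3 encode zinc finger factors that bind G+C-rich sites, with Egr3 also known for its part in muscle spindles. Nr4a1 encodes an orphan nuclear receptor that responds to exercise and adrenergic signals and acts on glucose metabolism in muscle. Ier2 encodes a small nuclear protein of the early response.

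The promoters of 3 members are shown, with matched motifs in capitals, because Junb and Nr4a1 gave some of the firmest changes below and Fos is the gene against which the others are set. Each is the 250 bases before the transcription start in RefSeq, build GRCm38.p6. Fos lies at chr12:85473890-85477274 on the plus strand and its promoter at chr12:85473640-85473889. Junb lies at chr8:84976909-84978748 on the minus strand and its promoter at chr8:84978749-84978998. Nr4a1 lies at chr15:101253902-101274795 on the plus strand, and the promoter shown, at chr15:101266596-101266845, precedes a start inside that span.
Fos: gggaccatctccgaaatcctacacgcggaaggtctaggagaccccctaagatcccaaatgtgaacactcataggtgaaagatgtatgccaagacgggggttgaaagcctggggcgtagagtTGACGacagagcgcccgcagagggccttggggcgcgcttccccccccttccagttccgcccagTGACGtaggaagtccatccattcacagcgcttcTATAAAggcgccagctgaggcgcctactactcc
Junb: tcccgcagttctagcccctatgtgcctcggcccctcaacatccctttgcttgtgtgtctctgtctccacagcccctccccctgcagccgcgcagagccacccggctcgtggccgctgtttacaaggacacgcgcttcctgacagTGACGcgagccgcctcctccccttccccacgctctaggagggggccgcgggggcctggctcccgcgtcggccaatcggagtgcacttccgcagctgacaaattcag
Nr4a1: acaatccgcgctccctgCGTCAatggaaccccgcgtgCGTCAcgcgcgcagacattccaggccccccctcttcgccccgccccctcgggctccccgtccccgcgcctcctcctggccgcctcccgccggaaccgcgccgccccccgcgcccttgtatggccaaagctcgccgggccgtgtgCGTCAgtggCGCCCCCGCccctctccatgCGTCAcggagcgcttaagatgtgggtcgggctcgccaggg
The capitals mark the core of the cAMP response element (TGACG, or CGTCA on the other strand), the TATA box of Fos (TATAAA) and an EGR site of Nr4a1 (GCGNGGGCG, on the other strand). A shorter stretch of the Egr2 gene, chr10:67537797-67537818 on the plus strand, holds a CArG box, the site of serum response factor (CC, then 6 A or T, then GG), next to another core element.
Egr2: CCATATATGGgcagcgaCGTCA
The RefSeq table held promoters of 7 of the 10 members, and both strands were searched. Genes were counted by any of their listed promoters, of which Egr2 had 5 and the others 1 each. The core element was found in 6 of these 7, all but Jun, and in 19.8% of the 27025 genes searched, with windows of the same length. A CArG box was found in Egr2 (1.62% of genes), an EGR site in Fosb and Nr4a1 (5.33%), and a TATA box in Fos (14.3%). Neither the full element TGACGTCA, which holds the core on both strands (1.77%), nor an AP-1 site, TGANTCA (7.82%), was found in the 7. A match describes the letters only, and the absence of a match says nothing of sites outside these windows.

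Libraries held 38583802 to 300089909 counts on genes (median 72766895), and the next highest total was 104836980. At these depths the spread between libraries, not counting error, set the precision of all but the lowest values. Levels are given as CPM, counts scaled to the size of the library, with sizes corrected by TMM factors (trimmed mean of M values). They are compared between libraries of a gene, never between genes. The median CPM of the fibre genes Acta1 and Ckm was 6412 and 2448 in diaphragm, 9367 and 2296 in soleus, 12600 and 7748 in gastrocnemius, and 9360 and 5385 in tibialis anterior. Of the 407 libraries 10 stood apart, 9 of them among the 98 of the diaphragm and 1 in the soleus. These had a correlation below 0.9 with the median profile of their muscle, more than 1000 CPM of liver markers, or gene-wise deviations that ran against G+C content (r below -0.3). Calls of the members with age that rest on them are given with and without them. Differences of the diaphragm from other muscles and between its sexes, and the sex difference in its course with age, are given with them only.

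Among these libraries, the 7 with r against transcript G+C content between -0.813 and -0.337 were all from the diaphragm, and they bear directly on 3 members. Junb had 0.0433 to 0.760 CPM (median 0.0919) in these 7 and 6.53 to 78.4 (median 14.0) in the other 91 diaphragm libraries. Ier2 had 0.196 to 2.63 CPM (median 0.520) against 2.85 to 21.2 (median 5.11). Jun had 7.62 to 15.5 CPM (median 9.42) against 26.0 to 74.3. For each of these 3 genes all 7 libraries lay below all others, without overlap. Of the others, Nr4a1 was below all remaining diaphragm libraries in 5 of the 7, Egr1 and Egr2 in 4, Fos, Fosb and Atf3 in 1 and Egr3 in 0. Transcript G+C content was 62.6% for Junb, above 99.3% of genes, and 60.9% for Ier2, above 98.1%. Jun had 55.5%.

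**Figure D1:**
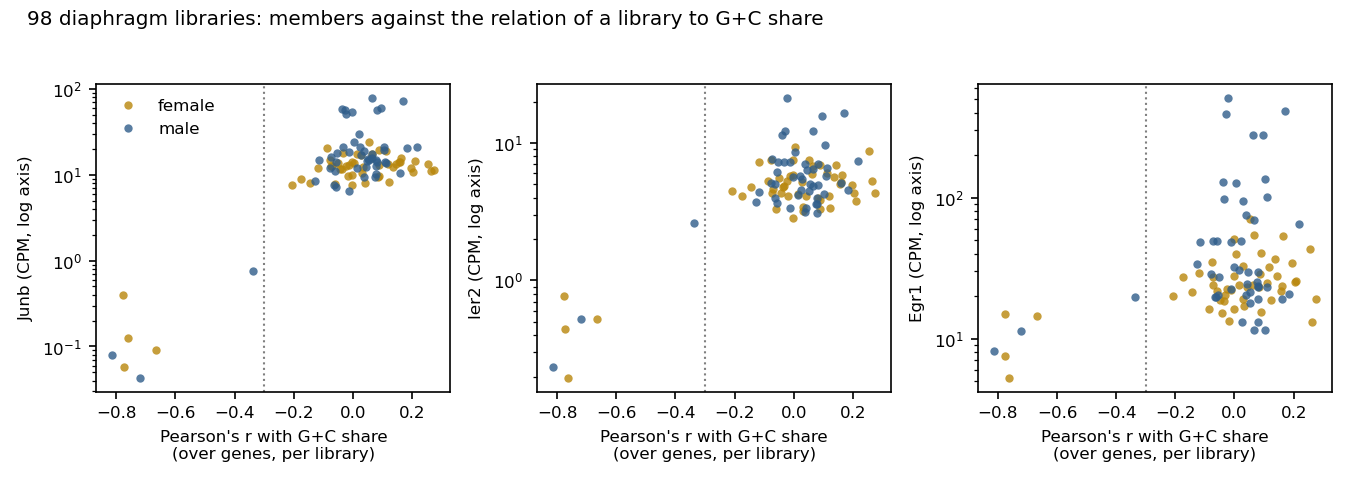
Level of Junb, Ier2 and Egr1 (CPM, log axis) in the 98 diaphragm libraries against the correlation of each library's gene-wise deviations with transcript G+C content, with a dotted line at -0.3. The 7 libraries left of the line are below all others for Junb (0.0433 to 0.760 CPM) and Ier2 (0.196 to 2.63 CPM), and some but not all are for Egr1.

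Across the muscles the steadiest difference was that of Nr4a1, whose median level was 26.7 CPM in the diaphragm, 46.3 in soleus, 100 in gastrocnemius and 147 in tibialis anterior. Its libraries ranged from 0.813 to 121 CPM, 9.34 to 187, 45.1 to 251 and 26.9 to 457 in the same order, so that single libraries of different muscles overlapped. All 6 muscle pairs differed for Nr4a1 in the quasi-likelihood test of edgeR, Benjamini-Hochberg adjusted over all genes (edgeR below), and passed the fold limit of 1.5 except gastrocnemius and tibialis anterior. Jun followed a narrower order, with medians of 39.0, 63.6, 72.1 and 83.6 CPM in diaphragm, soleus, gastrocnemius and tibialis anterior. Atf3 stood out in the soleus, with a median of 16.8 CPM against 5.24 in diaphragm, 5.66 in gastrocnemius and 6.50 in tibialis anterior. Fos had medians of 11.5, 6.44, 13.7 and 9.56 CPM in diaphragm, gastrocnemius, soleus and tibialis anterior.

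Called between muscles, by a fold above 1.5 and an adjusted p below 0.05 over the mean of the 12 sex and age groups, were 3 of 10 members for diaphragm and gastrocnemius, where 51.8% of all genes were called. Fos was higher in the diaphragm (log2 difference 0.63), and Jun (-0.94) and Nr4a1 (-1.84) were lower. For diaphragm and soleus 3 were called (38.8% of all genes), with Atf3 (-1.74), Jun (-0.75) and Nr4a1 (-0.70) lower in the diaphragm. For diaphragm and tibialis anterior 6 were called (53.8% of all genes), Egr2 (0.70) and Ier2 (0.60) higher in the diaphragm and Atf3 (-0.69), Fosb (-0.67), Jun (-1.19) and Nr4a1 (-2.33) lower. Between gastrocnemius and soleus 5 were called (30.3% of all genes), Nr4a1 (1.14) higher in the gastrocnemius and Atf3 (-1.63), Egr1 (-0.60), Egr3 (-0.71) and Fos (-0.85) lower. Between gastrocnemius and tibialis anterior Atf3 (-0.59) and Fos (-0.75) were lower in the gastrocnemius, 2 of 10 where 16.2% of all genes were called. In soleus 4 differed from the tibialis anterior (32.3% of all genes), with Atf3 (1.04), Egr2 (0.86) and Egr3 (0.62) higher in the soleus and Nr4a1 (-1.64) lower. Junb was called in none of the 6 pairs. Limma-voom with the replicate number as a block called 3 members for diaphragm and tibialis anterior and 0 for gastrocnemius and tibialis anterior.

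With age the members did not move in 1 direction. In males all called changes were rises, 19 of 40 at 21 months and 7 of 40 at 24 months over the 4 muscles, and in females all were falls, 7 of 40 at 21 months and 10 of 40 at 24 months. Of the female calls, 2 at 21 months and 4 at 24 months were in the tibialis anterior and rested on 1 library of 6 months (below). Atf3, Egr1, Jun and Junb were not called lower at these 2 ages in any female muscle. Every older age was compared with the 6-month libraries of the same muscle and sex, so the comparisons of a muscle and sex share their 6-month libraries. If the muscles share mice, which the labels do not give, the 40 comparisons of an age are not independent either. In males at 21 months, 8 of 10 members were higher in gastrocnemius, 5 in the diaphragm, 5 in tibialis anterior and 1 in soleus, and 0 were lower. Of all genes tested 2.8%, 5.14%, 1.46% and 0.547% were higher in these muscles at that age, and 0.755%, 2.13%, 0.808% and 0.176% were lower. The median log2 fold change of the members was 2.05, 1.34, 1.30 and 1.43, against -0.01, 0.05, -0.01 and 0.00 over all genes tested. All 10 passed the filter on low counts in each muscle and sex. In males at 24 months 3, 1, 3 and 0 members were higher in the same order (3.14%, 0.435%, 4.58% and 1.52% of all genes). At 27 months 1 was, in gastrocnemius (3.87%, 4.14%, 2.79% and 0.795% of all genes). Without the 10 libraries apart, the count in the male diaphragm at 21 months was 3, and the share of all genes in that refit is not given here.

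In females at 21 months 0, 1, 4 and 2 members were lower in diaphragm, gastrocnemius, soleus and tibialis anterior, and at 24 months 0, 2, 4 and 4. Of all genes 0.834%, 0.969%, 3.95% and 1.18% were lower in these muscles at 21 months, and 1.67%, 1.08%, 3.44% and 1.52% at 24 months. At 18 months 1 member was lower, in tibialis anterior (0.0803%, 0.566%, 0.814% and 0.521% of all genes in the same muscle order). At 27 months 1 was lower in the gastrocnemius and 1 in tibialis anterior (0.692%, 0.898%, 2.37% and 1.06%). At 12 months edgeR called 0 of 40 member by muscle comparisons in each sex (0%, 0.195%, 0.111% and 0.13% of all genes in the female muscles and 0.0622%, 0.315%, 0.0586% and 0.145% in the male), with an unadjusted p below 0.05 in 0 in females and 1 in males, and limma-voom and DESeq2 called 0. At 18 months in males edgeR called 0 of 40 (0.131%, 1.23%, 0.313% and 0.787% of all genes), with an unadjusted p below 0.05 in 4, and limma-voom called 0 and DESeq2 2. In the female diaphragm edgeR called 0 of 50 at any age, where 2.94% of all genes had a call, with an unadjusted p below 0.05 in 8, and limma-voom called 0 and DESeq2 1. In bulk tissue, fewer cells of a type and less RNA per cell cannot be told apart in any of these values.

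**Figure D2:**
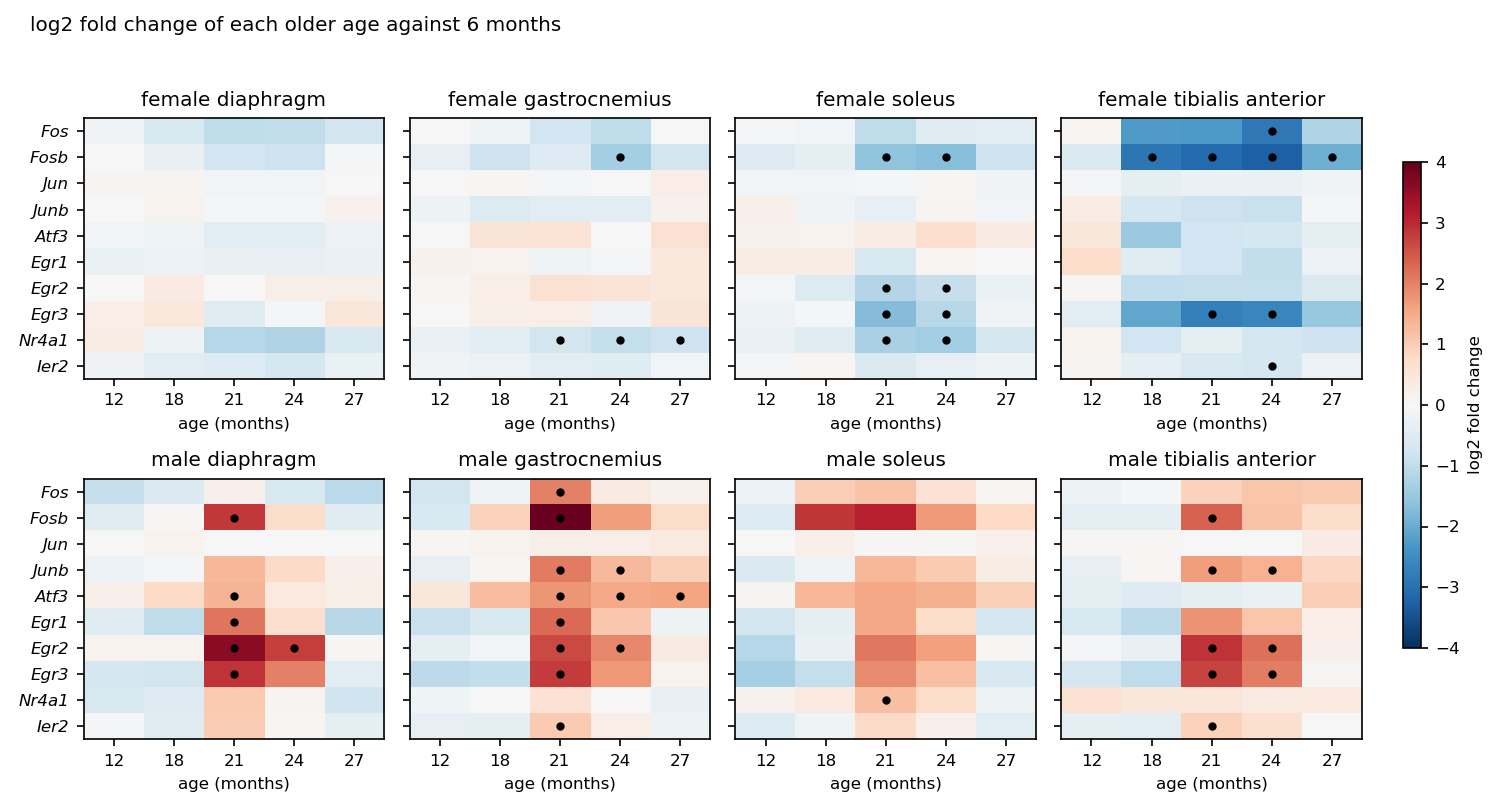
Log2 fold change of each of the 10 genes at 12 to 27 months against 6 months in each muscle and sex (colour, from -4 to 4), with a dot where a change was called. Dots cluster in the 21-month column in males, where all called changes are rises, and in the 21- and 24-month columns in females, where all are falls.

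Of the AP-1 genes, Fosb showed the widest change in males at 21 months. In the gastrocnemius it had 0.281, 1.12 and 2.67 CPM (lowest, median and highest of 8) at 6 months and 0.676, 11.1 and 60.5 (of 8) at 21 months. The groups overlapped, with 6 of 8 libraries at 21 months above all at 6 months. The log2 fold change was 3.94 ± 0.77 (standard error; edgeR adjusted p = 0.00054). In the diaphragm Fosb had 0.0786, 1.29 and 2.55 CPM at 6 months (n = 8) and 2.72, 7.89 and 29.8 at 21 months (n = 7), without overlap (2.83 ± 0.60, edgeR adjusted p = 0.00406). In the tibialis anterior it had 0.162, 1.41 and 3.38 CPM at 6 months and 0.443, 5.93 and 18.5 at 21 months, 8 libraries each, with 4 of 8 above all at 6 months. That change was 2.34 ± 0.72 (edgeR adjusted p = 0.0381), and 0.0785 without replicate 3 of 6 months.

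Fos itself was called in the male gastrocnemius only among the 4 male muscles at 21 months, from 2.01, 8.58 and 22.9 CPM to 4.87, 27.2 and 99.6, and 5 of 8 libraries lay above all at 6 months. Its log2 fold change there was 2.01 ± 0.48 (edgeR adjusted p = 0.00415). In the male diaphragm it was 0.21 at this age and did not pass the test. Junb rose in gastrocnemius, from 4.93, 7.55 and 16.6 CPM to 7.66, 26.8 and 91.7, and in tibialis anterior, from 4.53, 7.68 and 11.5 to 4.19, 21.6 and 56.3. In each of these muscles 7 of 8 libraries at 21 months were above all at 6 months. The log2 fold changes were 2.09 ± 0.44 (edgeR adjusted p = 0.00112) and 1.66 ± 0.39 (edgeR adjusted p = 0.00551). In the diaphragm Junb, whose level there moved with the G+C libraries, had a log2 fold change of 1.34 (edgeR adjusted p = 0.197). At 24 months it was still called in gastrocnemius (1.31 ± 0.41, edgeR adjusted p = 0.0254, and 0.112 without replicate 5 of 24 months) and in tibialis anterior (1.38 ± 0.37, edgeR adjusted p = 0.00918).

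Atf3 was the member called at most ages in a single male muscle. In the gastrocnemius it had 1.26, 3.19 and 4.17 CPM at 6 months, 3.41, 8.85 and 16.7 at 21 months, 3.53, 6.17 and 14.4 at 24 months and 2.72, 6.42 and 29.2 at 27 months. At 21 months 7 of 8 libraries were above all 6-month libraries. The log2 fold changes were 1.76 ± 0.41 (edgeR adjusted p = 0.00302), 1.51 ± 0.39 (0.00563) and 1.59 ± 0.39 (0.00197). In the diaphragm at 21 months it went from 2.54, 4.71 and 7.09 CPM to 4.58, 10.4 and 20.0, with 5 of 7 above all at 6 months (1.34 ± 0.37, edgeR adjusted p = 0.0190). Without the libraries apart this change was 1.06 (edgeR adjusted p = 0.0806).

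**Figure D3:**
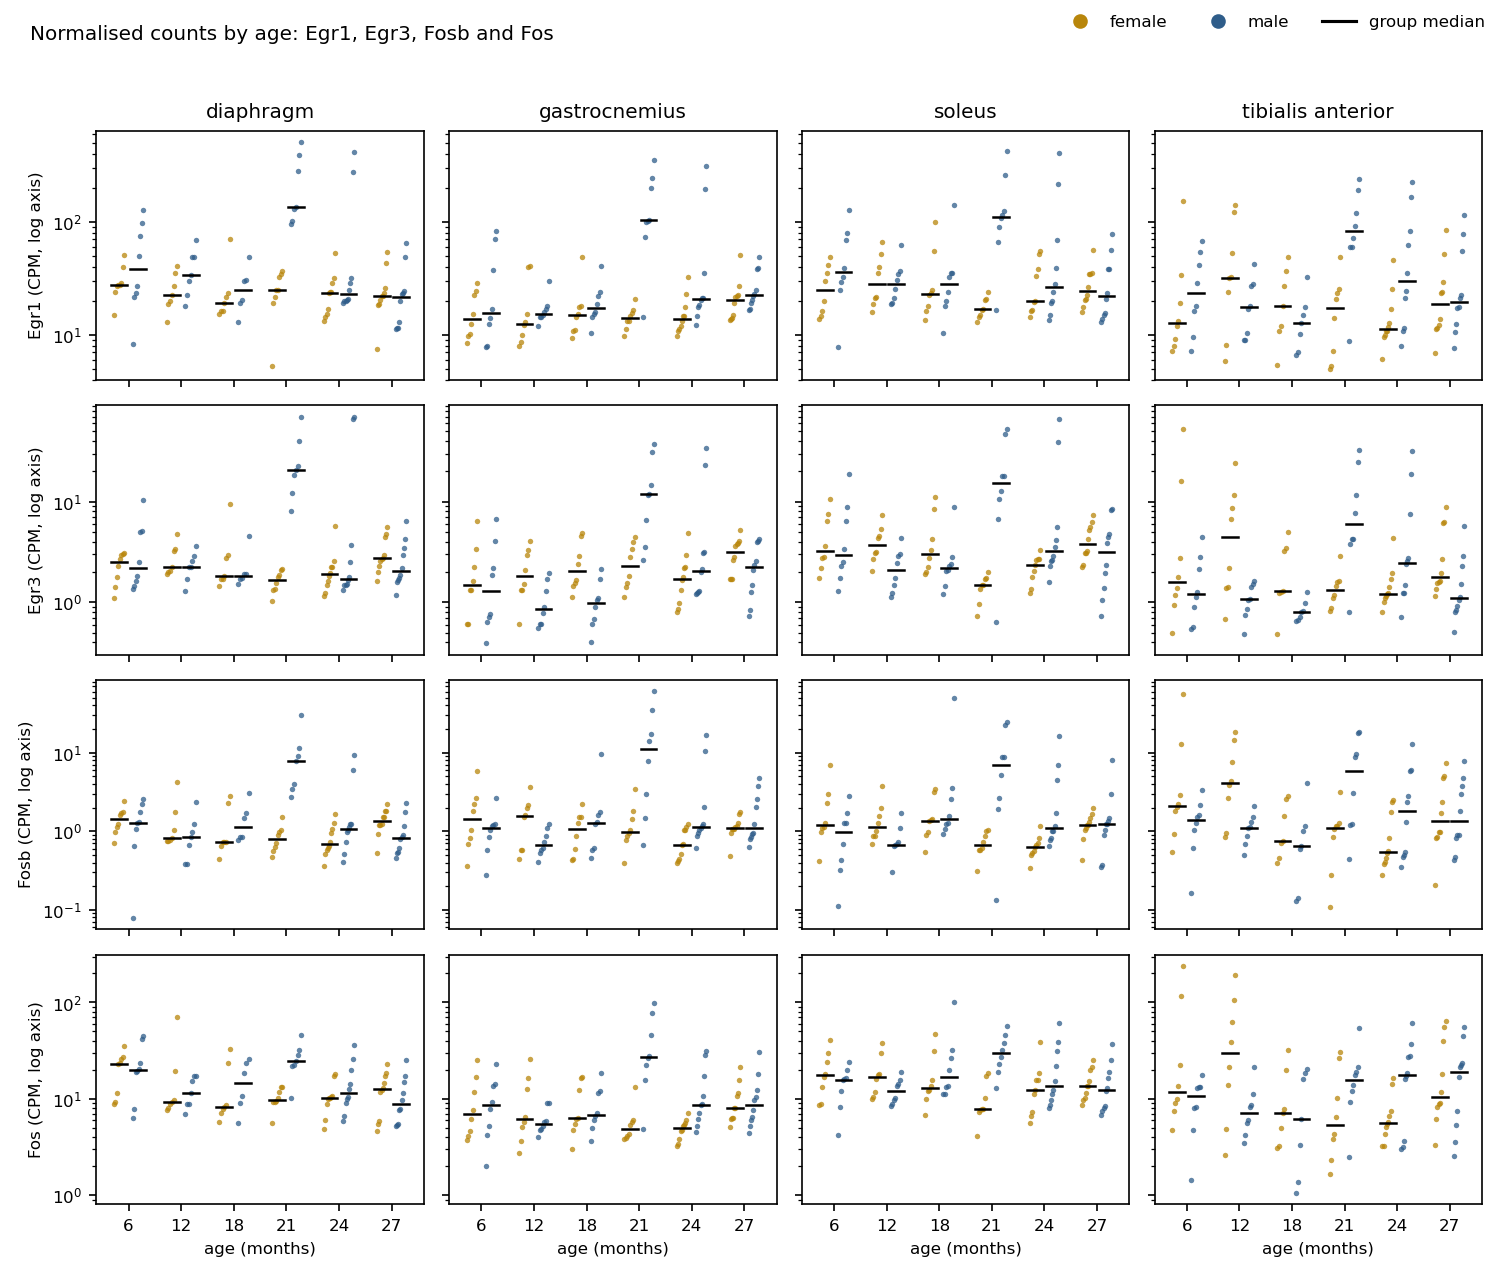
Level (CPM, log axis) of Egr1, Egr3, Fosb and Fos by age in males and females of each muscle; dots are libraries, ordered by level within a group, and lines are group medians. Most male libraries at 21 months lie above the medians of other ages for Egr1, Egr3 and Fosb, and the female tibialis anterior at 6 months holds libraries with the highest Fos (239 CPM) and Fosb (55.2 CPM) of that muscle.

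The median levels of the EGR genes in males at 21 months lay above those of the other ages, with ratios to the median of the other 5 ages, in the order diaphragm, gastrocnemius, soleus, tibialis anterior, of 5.55, 5.57, 3.87 and 4.58 for Egr1. The ratios were 8.60, 4.08, 3.91 and 5.47 for Egr2 and 10.7, 9.15, 6.09 and 5.28 for Egr3. Against 6 months the EGR genes did not pass in the soleus (edgeR adjusted p = 0.284 for Egr1, 0.0746 for Egr2 and 0.227 for Egr3), nor did Egr1 in tibialis anterior (1.79 ± 0.62, edgeR adjusted p = 0.0727). Egr2 in the diaphragm went from 0.472, 1.40 and 2.11 CPM (n = 8) to 3.03, 11.9 and 42.8 (n = 7). In the gastrocnemius it went from 0.839, 1.29 and 1.89 to 1.904, 5.60 and 21.5 (8 libraries each). The groups did not overlap in either muscle. The log2 fold changes were 3.62 ± 0.70 (edgeR adjusted p = 0.00237) and 2.65 ± 0.50 (edgeR adjusted p = 0.000329). In the tibialis anterior Egr2 went from 0.317, 0.862 and 1.14 CPM to 0.475, 4.60 and 16.7, and 6 of 8 libraries exceeded all at 6 months (2.89 ± 0.60, edgeR adjusted p = 0.00168).

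Egr3 followed in the same 3 muscles. Its levels went from 1.35, 2.18 and 10.5 CPM to 8.00, 20.5 and 69.9 in the diaphragm (log2 fold change 2.89 ± 0.75, edgeR adjusted p = 0.0120). In the gastrocnemius they went from 0.390, 1.30 and 6.68 to 2.64, 11.9 and 37.9 (2.80 ± 0.67, edgeR adjusted p = 0.00431), and in the tibialis anterior from 0.541, 1.204 and 4.43 to 0.807, 6.02 and 33.0 (2.71 ± 0.65, edgeR adjusted p = 0.0067). All of these groups overlapped. Egr1 rose in the diaphragm, from 8.23, 38.3 and 126 CPM to 94.7, 135 and 508 with 5 of 7 libraries above all at 6 months (2.13 ± 0.64, edgeR adjusted p = 0.0278). That call was lost without the libraries apart (1.91, edgeR adjusted p = 0.0770) and without replicate 2 of 6 months (edgeR adjusted p = 0.0528), which is one of them. In the gastrocnemius Egr1 rose from 7.84, 15.5 and 82.4 CPM to 14.5, 103 and 355 (2.25 ± 0.59, edgeR adjusted p = 0.00923).

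At 24 months the male EGR levels were high in a pair of libraries of each muscle with a call. In the diaphragm Egr2 was at 44.0 and 40.1 CPM in replicates 1 and 2 and at 0.929 to 2.85 in the other 8, with a log2 fold change of 2.77 ± 0.65 (edgeR adjusted p = 0.0221). It was lost without replicate 1 (edgeR adjusted p = 0.0812). In gastrocnemius Egr2 was at 21.0 and 13.6 CPM in replicates 5 and 6 and at 1.28 to 2.27 in the other 8 (1.92 ± 0.48, edgeR adjusted p = 0.00416). In tibialis anterior it was at 14.5 and 12.7 CPM in replicates 5 and 6 and at 0.184 to 2.85 in the other 8 (2.20 ± 0.57, edgeR adjusted p = 0.00628). Egr3 in this muscle was highest in the same replicate numbers, 31.6 and 19.0 CPM against 0.707 to 7.55 (2.04 ± 0.62, edgeR adjusted p = 0.0203), and was lost without replicate 5 (edgeR adjusted p = 0.109). The 24-month groups overlapped with 6 months for each of these.

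Nr4a1 was the only member called in the male soleus at 21 months. It went from 27.9, 44.8 and 62.1 CPM to 22.7, 110 and 174 (1.198 ± 0.31, edgeR adjusted p = 0.0337), and the call was lost without replicate 3 of 6 months (edgeR adjusted p = 0.0763). The other members in that muscle had larger log2 fold changes with larger errors, such as Fosb (3.11 ± 0.90, edgeR adjusted p = 0.0687), Egr2 (2.12 ± 0.62, 0.0746) and Atf3 (1.54 ± 0.46, 0.0831). With replicate 0 of 21 months left out, the soleus had 5 calls. Ier2 rose in gastrocnemius, from 2.42, 3.86 and 7.17 CPM to 3.19, 7.85 and 17.6 (1.05 ± 0.28, edgeR adjusted p = 0.00928). In tibialis anterior it went from 1.68, 3.28 and 6.00 CPM to 2.23, 5.90 and 13.0 (0.94 ± 0.30, edgeR adjusted p = 0.0493), a call lost without any of 4 single libraries.

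Replicate 0 of the males at 21 months was low in the 3 limb muscles. Its Egr1 level was 16.5 CPM in soleus, 14.5 in gastrocnemius and 8.91 in tibialis anterior, where the other 7 libraries had 66.0 to 419, 73.8 to 355 and 59.5 to 241. In the diaphragm replicate 0 had 135 CPM, inside the range of the other 6 (94.7 to 508). Replicates 2 and 3 were the highest for Egr1, Egr2 and Fosb in gastrocnemius and tibialis anterior. In the soleus Fosb was at 0.132 CPM in replicate 0 and at 22.4 and 24.6 in replicates 2 and 3.

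Jun was the exception among the 10. It was called at no age in any muscle or sex, and at 21 months in males the ratio of its median to that of the other ages was 0.851, 1.02, 1.02 and 0.996 in diaphragm, gastrocnemius, soleus and tibialis anterior. Its changes with the smallest adjusted p were in gastrocnemius at 27 months. Females went from 62.3, 70.3 and 77.9 CPM to 62.0, 84.8 and 98.4 and males from 57.2, 70.5 and 82.8 to 66.4, 84.2 and 122, with overlap in both. These changes, 0.27 ± 0.07 (edgeR adjusted p = 0.002) and 0.38 ± 0.11 (edgeR adjusted p = 0.0069), are folds of 1.21 and 1.30 and stayed under the fold limit.

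**Figure D4:**
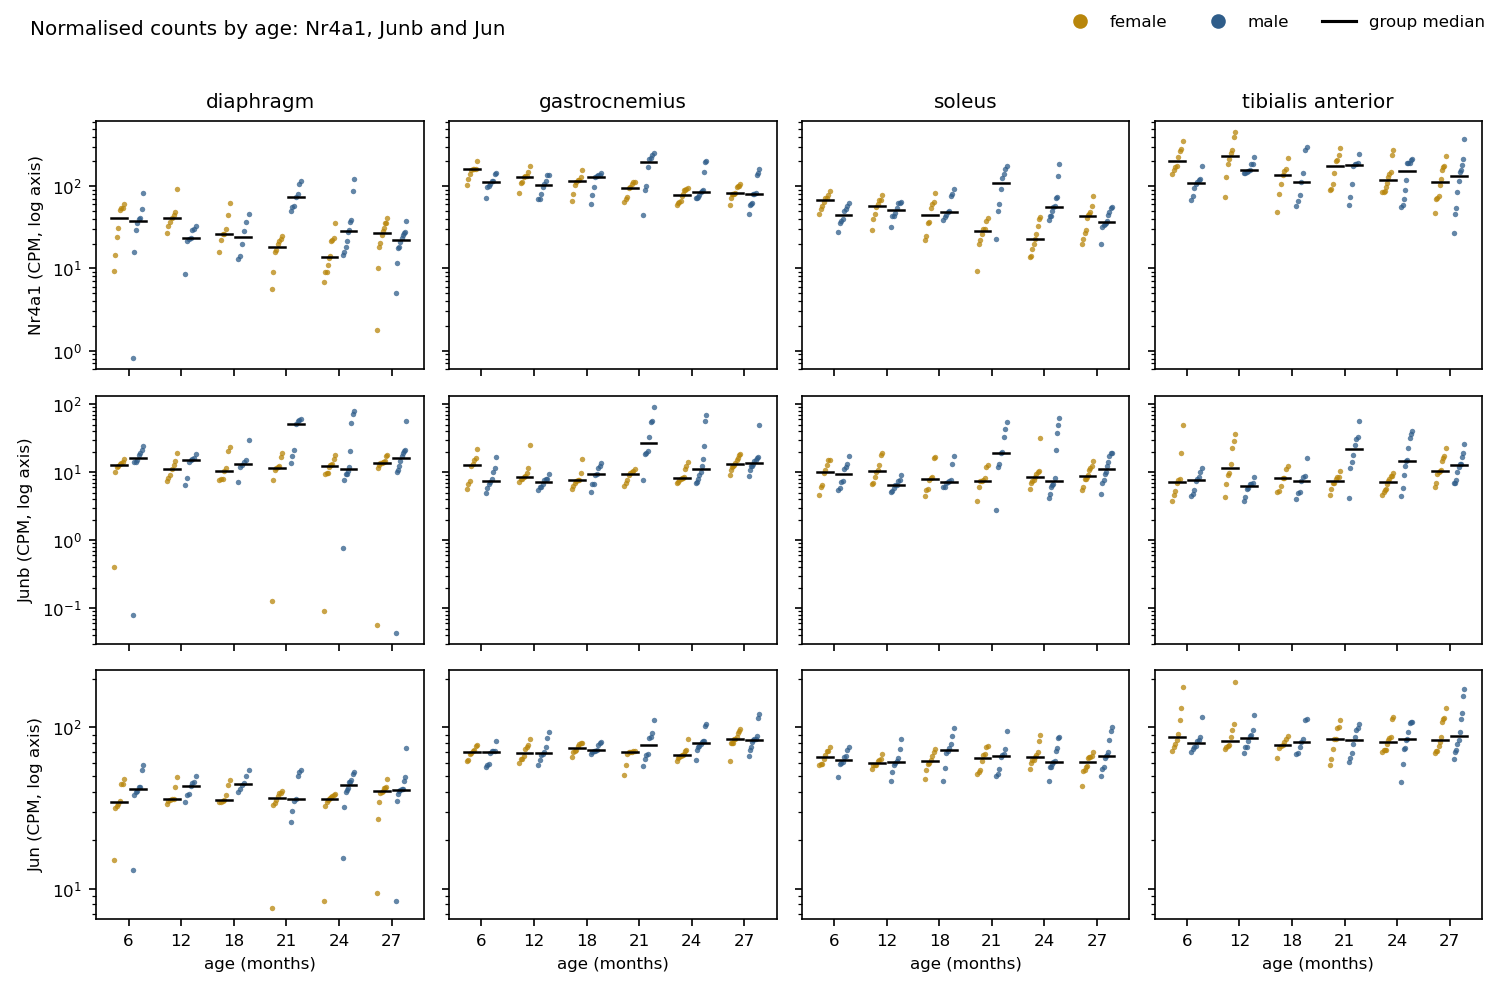
Level (CPM, log axis) of Nr4a1, Junb and Jun by age in males and females of each muscle; dots are libraries, ordered by level within a group, and lines are group medians. Nr4a1 falls in the female gastrocnemius from a median of 160 CPM at 6 months to 78.0 at 24 months, Jun stays nearly level in the limb muscles, and the lowest diaphragm dots of Junb are the libraries low in G+C-rich transcripts.

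In females Nr4a1 gave the clearest fall. In the gastrocnemius it had 103, 160 and 204 CPM at 6 months (n = 8), 63.5, 96.3 and 112 at 21 months (n = 8), 59.0, 78.0 and 95.4 at 24 months (n = 10) and 58.3, 81.7 and 105 at 27 months (n = 10). Only the 24-month group did not overlap with 6 months. The log2 fold changes were -0.72 ± 0.15 (edgeR adjusted p = 0.000501), -0.97 ± 0.14 (1.14e-06) and -0.81 ± 0.14 (1.38e-05). In the soleus Nr4a1 had 46.3, 67.3 and 86.7 CPM at 6 months (n = 8), 9.34, 28.2 and 40.6 at 21 months (n = 8) and 13.7, 22.5 and 42.3 at 24 months (n = 9), and neither older group overlapped with 6 months. The changes were -1.30 ± 0.28 (edgeR adjusted p = 0.000659) and -1.40 ± 0.27 (edgeR adjusted p = 0.000162). In the female diaphragm its change at 24 months was -1.19 ± 0.37 (edgeR adjusted p = 0.0597). Without the libraries apart it was called there, at 24 months (-1.24, edgeR adjusted p = 0.00730) and at 21 months (-1.16, edgeR adjusted p = 0.0317), as was Ier2 at 24 months (-0.74, edgeR adjusted p = 0.00421). The share of all genes called in that refit is not given here. The shares given for the female diaphragm are those with all libraries.

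In the female soleus Fosb, Egr2 and Egr3 were also lower at both ages. Fosb went from 0.414, 1.1997 and 6.88 CPM to 0.312, 0.669 and 1.03 at 21 months and 0.338, 0.633 and 1.17 at 24 months (-1.59 ± 0.40 and -1.71 ± 0.38, edgeR adjusted p = 0.00263 and 0.000805). Egr3 went from 1.74, 3.23 and 10.5 CPM to 0.723, 1.48 and 2.01 and 1.24, 2.36 and 3.29 (-1.73 ± 0.36 and -1.09 ± 0.34, edgeR adjusted p = 0.000385 and 0.0146). Egr2 went from 0.740, 2.62 and 5.74 CPM to 0.793, 1.13 and 2.39 and 0.776, 1.45 and 2.82 (-1.18 ± 0.32 and -0.91 ± 0.31, edgeR adjusted p = 0.00618 and 0.0277). The groups overlapped for each of these 3 genes, with the highest values at 6 months. In the female gastrocnemius Fosb went from 0.366, 1.43 and 5.86 CPM to 0.393, 0.670 and 1.25 at 24 months (-1.35 ± 0.42, edgeR adjusted p = 0.0163).

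The 8 calls of the female tibialis anterior rested on 1 library of 6 months, replicate 0. Fosb there had 0.551 to 2.88 CPM in 6 libraries of 6 months, 12.9 in replicate 6 and 55.2 in replicate 0. Fos had 4.73 to 22.4, 116 and 239 CPM in the same libraries, and Egr3 had 0.498 to 2.78, 16.0 and 52.7. At 24 months the highest of 10 libraries were 2.54 CPM for Fosb, 16.3 for Fos and 4.39 for Egr3, and the lowest were 0.276, 3.22 and 0.792, so most libraries of both ages shared a range. With all libraries the log2 fold changes at 24 months were -3.28 ± 0.73 for Fosb (edgeR adjusted p = 0.00133), -2.87 ± 0.76 for Fos (0.00622), -2.60 ± 0.68 for Egr3 (0.00539) and -0.69 ± 0.24 for Ier2 (0.0371). Without replicate 0 they were -1.72 (edgeR adjusted p = 0.0710), -1.86 (0.0772), -1.13 (0.217) and -0.32 (0.330), and 0 calls remained in this muscle.

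Because 6 months is 1 collection among 6, each age was also compared with the mean of the other 5 ages. In males at 21 months 7 of 10 members were higher in diaphragm, 7 in gastrocnemius, 6 in tibialis anterior and 4 in soleus, where 4.61%, 0.847%, 0.414% and 0.13% of all genes were. Without the libraries apart the diaphragm count was 6. At 24 months 1, 2, 4 and 1 members were higher in the male muscles (0.0249%, 0.946%, 4.22% and 1.74% of all genes). The female 6-month libraries were higher for 0, 1, 3 and 2 members (0.828%, 0.644%, 1.01% and 2.3%), and 1 member at 21 months (0.176%) and 2 at 24 months (0.3%) were lower in the female soleus. Replicate 0 of 6 months in the female tibialis anterior, on which the calls above rested, enters the count of 3. This comparison was not refitted without it.

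Other gene lists moved beside the members in males at 21 months, and their part in the members' changes was not tested. Of the 4 T cell markers (Cd3e, Cd3g, Cd8a and Cd4) all 4 were higher in the diaphragm, with a summed level of 1.21 to 2.22 CPM at 6 months and 1.80 to 52.3 at 21 months, and 3 were higher without the libraries apart. In gastrocnemius 1 of the 2 tested was higher. Liver markers were higher for 2 of 5 in the diaphragm (summed level 1.02 to 301 CPM at 6 months and 2.17 to 24921 at 21 months). The top of that range is replicate 3 alone, 1 of the libraries apart, and without those libraries the liver sum at 21 months was 2.17 to 197 CPM and 0 of 5 were called in edgeR, with an unadjusted p below 0.05 in 0. Fibroblast markers were lower for 2, 2, 1 and 1 of 4 in diaphragm, gastrocnemius, soleus and tibialis anterior, with sums of 1614 to 2344 CPM at 6 months and 890 to 1844 at 21 months in the diaphragm and 923 to 1115 and 619 to 829.25 in gastrocnemius. Satellite cell markers were lower for 1, 1, 0 and 2 of 3. No marker of these lists was at 0 in all libraries of a male group at 6 or 21 months. Of 6 heat shock genes 3 were higher in the diaphragm and 2 in gastrocnemius, among them the chaperone gene Dnajb1 (2.29 ± 0.44, edgeR adjusted p = 0.00222, and 1.00 ± 0.29, 0.0210). Without the libraries apart 2 were higher in the diaphragm, and Dnajb1 had 1.30 ± 0.38 (edgeR adjusted p = 0.0337). Of 13 circadian genes 5, 1, 1 and 1 were lower, and 4 in the diaphragm without the libraries apart. Without the libraries apart, edgeR called 0 genes of the macrophage, neutrophil, endothelial, adipocyte, Schwann, red blood cell and hypoxia lists in each muscle. For neutrophils in gastrocnemius 3 of 3 had an unadjusted p below 0.05. The B cell list had 1 of 4 higher and the fibre list 1 of 7, both in gastrocnemius, and the smooth muscle list 1 of 4 in the diaphragm. The shares of all genes higher and lower at this age are those given above. Of 7 genes for kinases and factors upstream of the members, edgeR called 0 of 28 comparisons over the 4 muscles, with an unadjusted p below 0.05 in 5, and limma-voom and DESeq2 called 0.

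The difference between the sexes in the course with age was itself tested, as an interaction of sex and age. It passed for 5, 8, 8 and 7 of 10 members in diaphragm, gastrocnemius, soleus and tibialis anterior, where 1.86%, 7.84%, 5.88% and 8.42% of all genes passed. Egr1, Egr2, Egr3 and Fosb passed in all 4 muscles, and Jun and Atf3 in none. By single ages, 6, 8, 6 and 6 members differed in their change from 6 to 21 months, all with the higher change in males (2.28%, 4.24%, 3.68% and 4.4% of all genes in either direction). For 24 months the counts were 0, 3, 4 and 6 (0.229%, 3.88%, 9.15% and 6.07%). At 12, 18 and 27 months 0 of 40 were called by edgeR, with an unadjusted p below 0.05 in 0, 8 and 4. The shares of all genes were 0%, 0.00636%, 0% and 0.0201% at 12 months, 0.00602%, 0.146%, 0.0252% and 0.1% at 18 months and 0%, 1.59%, 0.83% and 1.67% at 27 months. The largest of these differences at 21 months, female minus male, were those of Fosb (-5.47 ± 1.07, edgeR adjusted p = 0.000373) and Egr3 (-5.45 ± 0.99, edgeR adjusted p = 0.000112) in the tibialis anterior, where the female 6-month replicate 0 enters both. That library enters every tibialis anterior count of this interaction, and a fit without it was not run. The diaphragm counts are those with the libraries apart. In the soleus, Nr4a1 differed by -2.51 ± 0.42 (edgeR adjusted p = 5.61e-05).

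Over the mean of the 6 ages, 5 members were lower in females in the diaphragm, where 5.16% of all genes differed between the sexes. These were Egr1 (-1.09), Egr3 (-1.09), Egr2 (-0.88), Junb (-0.74) and Fosb (-0.68). Egr1 (-1.09) and Fosb (-0.95) were lower in the female gastrocnemius (8.14% of all genes). In the soleus Fosb (-1.16), Egr1 (-0.95) and Egr3 (-0.83) were lower in females (3.96%). In the tibialis anterior Atf3 was higher in females (0.76 ± 0.26, edgeR adjusted p = 0.0119, 5.27% of all genes). Libraries with outlying Atf3 enter this mean in both sexes, at 119 CPM in females (replicate 7 of 12 months) and 39.3 in males (replicate 0 of 6 months). The sexes were not compared without them. Without the 21-month libraries the counts were 1, 1 and 0 in the first 3 muscles and 4 in the tibialis anterior. The shares of all genes in these fits are not given here. In the tibialis anterior, female replicate 0 of 6 months and female replicate 7 of 12 months, each far from its group in some members, stay in the fit.

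Whether the muscles differed in their course with age was tested in the same way. In females 0 of 10 members passed in edgeR (11.8% of all genes), with an unadjusted p below 0.05 in 3, and limma-voom called 0. In males Atf3 passed (adjusted p = 0.0202, 11.5% of all genes). Without the libraries apart Fos (edgeR adjusted p = 0.0439) and Egr3 (edgeR adjusted p = 0.0464) passed in females, and Atf3 in males. The shares of 11.8% and 11.5% are those of the main fit. No share of all genes is given here for the refits, so passes in them are not shown to exceed it. With relative log expression scaling Fosb passed in males beside Atf3 (edgeR adjusted p = 0.0485). In the main fit of males Fos (edgeR adjusted p = 0.0804), Fosb (0.0553) and Egr3 did not pass. Apart from Atf3 in males, a change called in 1 muscle and not in another is therefore not shown to differ between muscles in that fit.

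Libraries of a group differed widely for most members. The residual SD of log2 CPM about the group means was 1.57 and 1.39 for Fos and 1.54 and 1.57 for Fosb in female and male tibialis anterior, above at least 98.3% of all genes tested. Fosb in the male soleus had 1.88. Jun had the narrowest spread, 0.15 to 0.35 in the limb muscles. In the diaphragm Junb had 1.93 in females and 1.98 in males, and 0.41 and 0.83 without the libraries apart.

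The members moved together between libraries of a group. Fos was set against each of the other 9 in each muscle and sex after removal of group means, and all 72 relations were positive, with a median Pearson r of 0.61 (0.10 to 0.92). Of these 64 had an adjusted p below 0.05 in a permutation test within age groups (100000 resamples, 2-sided, Benjamini-Hochberg over the 72), and 65 had for Spearman's rho. Without the 2 libraries farthest from the median of Fos the median r was 0.58 (0.01 to 0.91), and without the libraries apart it was 0.64. By partner, the median r was 0.70 for Fosb, 0.68 for Egr1, 0.67 for Junb, 0.63 for Atf3, 0.61 for Nr4a1, 0.60 for Ier2, 0.54 for Egr3, 0.41 for Egr2 and 0.37 for Jun. The points share a muscle, a sex and the total count of their library.

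Libraries of different limb muscles with the same sex, age and replicate number also went together. Of 60 relations, 10 members by 6 muscle pairs, 29 had an adjusted permutation p below 0.05, for Pearson's r and for Spearman's rho. Gastrocnemius and soleus related for 10 of 10 members (median r 0.68, 0.33 to 0.82), gastrocnemius and tibialis anterior for 10 (median r 0.59) and soleus and tibialis anterior for 9 (median r 0.48), all but Atf3 (r = 0.24). Egr1 in gastrocnemius and soleus had r = 0.82 and rho = 0.69 over 103 pairs (permutation p = 1e-05 for each, the smallest these permutations can give, and adjusted p = 3.33e-05 and 3.53e-05), and r = 0.78 without the 2 farthest. The diaphragm related to no limb muscle for any member, 0 of 30 with median r of -0.04, 0.02 and -0.04, and of 0.05, 0.06 and -0.02 without the libraries apart. The labels do not say that equal numbers are from the same mouse. Over all other genes, deviations of same-numbered libraries had a median r of 0.04, 0.08 and 0.09 in the 3 limb pairs, in the order above, and of -0.01 in each for other numbers. An r above 0.1 was seen in 32.0%, 47.1% and 44.6% of same-numbered limb pairs against 14.5%, 13.98% and 8.92% of those with other numbers. In pairs with diaphragm it was seen in 6.19% to 15.3% against 9.51% to 13.6%.

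**Figure D5:**
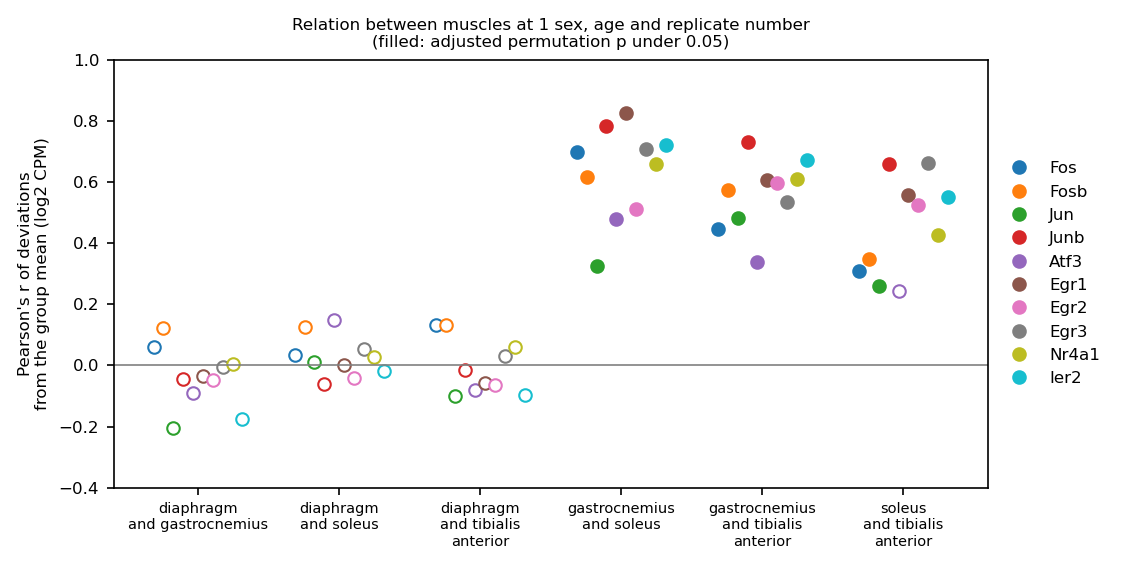
Pearson's r of each of the 10 genes between libraries of 2 muscles with the same sex, age and replicate number, after removal of group means; filled points have an adjusted permutation p below 0.05. Points of the 3 pairs of limb muscles are filled but for Atf3 in soleus and tibialis anterior, and the 30 points of the pairs with diaphragm lie near 0 and are open.

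The wider early response was read from a list of 57 other genes, of which 53 to 56 passed the filter on low counts. In males at 21 months 24, 23, 11 and 17 of them were higher in diaphragm, gastrocnemius, soleus and tibialis anterior (medians of 0.96, 0.82, 0.64 and 0.66), and 0 were lower. Without the libraries apart 14 were higher in the diaphragm. At 24 months 1, 12, 10 and 11 were higher. In females at 21 months 5, 7, 6 and 7 were lower and 1, 3, 4 and 1 higher, and at 24 months 7, 7, 6 and 10 were lower and 0, 3, 6 and 1 higher. Of all genes 0.438%, 3.1%, 1.62% and 1.86% were higher in females at 21 months and 0.599%, 3.4%, 1.87% and 3.01% at 24 months, and the other shares of all genes are those given with the members.

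By number of calls over the 40 comparisons, Nr4a2, the sister receptor of Nr4a1, led with 17, 4 higher and 13 lower. It was lower in the female gastrocnemius at 24 months (-3.06 ± 0.34, edgeR adjusted p = 2.43e-09) and higher in the male gastrocnemius at 21 months (2.66 ± 0.63, edgeR adjusted p = 0.00365). Fosl2, an AP-1 subunit, had 7 rises and 6 falls, and Klf4, a Kruppel-like factor, had 7 and 6. Nab2, a corepressor of EGR proteins, had 8 and 4, with a rise of 1.60 ± 0.23 in the male gastrocnemius at 21 months (edgeR adjusted p = 5.12e-06). Nr4a2, Fosl1, Fosl2, Klf4 and Nab2 were higher in all 4 male muscles at 21 months. Nfil3, a bZIP repressor with 10 falls and 1 rise, was mostly lower in females. Gadd45a, a stress gene also induced in denervated muscle, had 14 rises over both sexes together, 0 of them in males at 21 months. Its change in the male gastrocnemius at 27 months was 2.08 ± 0.23 (edgeR adjusted p = 1.47e-09). Fosl1 had 14 rises, Arc 10, Ier3 10, and Dusp2 7 rises and 1 fall. Sik1 and Thbs1 had as many calls as Dusp2, 8 each.

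Of 14172 other genes tested in all 8 fits, those whose deviations were most like the mean of the members were Btg2, an antiproliferative early gene (mean r 0.80 over the 8 fits, 0.71 to 0.92), Plk3 (0.78), Fosl2 (0.72), Apold1 (0.68), Csrnp1 (0.68), Nab2 (0.67), Sertad1 (0.66), Klf2 (0.65), Plekho2 (0.65) and Arc (0.65). Spry4, Actg1, Itprip, Tgfb1i1 and Irs2 followed with 0.63 to 0.64. The median over all genes was 0.01. These 15 are ranked over 407 libraries with group means removed, and without the libraries apart they stood at ranks 1 to 32.

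A rule adapted from the study's calls a gene age-related where its log2 CPM follows a line or a logistic curve better than a constant. Here age was taken as its logarithm, and the rule was applied to genes called with Benjamini-Hochberg adjustment. Of 80 fits, 10 members in 4 muscles and 2 sexes, 29 had a call at any age. The shares of all genes with such a call were 2.94%, 9.42%, 8.37% and 9.2% in the female muscles and 10.9%, 7.99%, 2.74% and 8.48% in the male. Of the 29, 5 were age-related (17.2%, against 51.6% of all called genes). Atf3 rose linearly in the male gastrocnemius, Junb rose by a mid-logistic curve in male gastrocnemius and tibialis anterior, and Nr4a1 fell linearly in female gastrocnemius and soleus.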

How the data were processed

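Total RNA, depleted of ribosomal RNA, of 4 muscles of male and female mice was sequenced in strand-specific, paired-end libraries. The authors deposited 1 table of raw counts per gene and library, made in ArrayStudio (version not given in the sources used here) on mm10, with their own gene model built from RefSeq. Each library was placed in its group of muscle, sex and age by its title. Of the 25091 rows, 633 repeated a symbol already listed (0.0336% of counts). Of repeated symbols, the entry with the highest sum over libraries was kept. No libraries were identical. The tables hold 38583802 to 300089909 counts per library, and counting error is small against the spread between mice except below about 1 CPM.

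The 6 ages of a muscle and sex were fitted together, apart from the other muscles and sex, by the quasi-likelihood test of edgeR 4.0.16 in R 4.3.3, with filterByExpr, TMM scaling and robust dispersions. Benjamini-Hochberg adjustment ran over the 14487 to 16193 genes tested. A change was called with a fold above 1.5 and an adjusted p below 0.05. Muscles were compared in a single fit of 48 groups, which treated all libraries as independent, and the sexes in 1 fit per muscle. CPM values use TMM factors of all libraries together (0.709 to 2.184), with a prior count of 0.5 on the log2 scale. The same code was tested on simulated counts. Relations across libraries used permutation tests with 100000 resamples (Python 3.11.15, numpy 2.4.6, pandas 2.3.3, scipy 1.17.1).

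Alternatives were limma-voom (limma 3.58.1), DESeq2 1.42.0, relative log expression scaling, no filter on low counts, Bonferroni adjustment, an adjusted p alone, the replicate number as a block, the run of sample numbers, and leaving out, in turn, the library of each group farthest in the mean of the members. Chosen after seeing the data were the fits without 21 months, without the 10 libraries apart, of each age against the other ages, of the interaction at single ages, and of muscles with a block in limma-voom. Shares of all genes called are given only for edgeR fits with all libraries and the main settings.

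The members and lists were chosen with earlier results of these data known. All 10 members are named, the 10 genes of the wider list with the most calls (ties by symbol, which left out Sik1 and Thbs1), and the 15 other genes most like the mean of the members. Where p-values are given, they measure the spread between these libraries. The labels do not state that libraries of a group are from separate mice, and the study's methods describe them as animals. Transcript G+C content was matched for 9143 of 9469 genes (96.6%).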

Additional observations from a re-analysis of the deposited data

Results flagged for a closer look

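In each group the highest or lowest library was compared with its nearest neighbour by Dixon's ratio on log2 CPM. Of 480 sets of a member and a group, 60 held such a library (12.5%), where chance alone would give about 1 in 20. They came from 35 libraries, of which 7 are among the 10 apart.

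In the female diaphragm at 6 months, replicate 2 was low in Egr2 (0.364 CPM), Ier2 (0.765), Jun (15.1) and Junb (0.401). At 21 months replicate 0 was low in Egr1 (5.29 CPM), Fos (5.55), Ier2 (0.196), Jun (7.62) and Junb (0.127), and replicate 3 in Atf3 (3.03). At 24 months replicate 3 was low in Ier2 (0.521 CPM), Jun (8.41) and Junb (0.0919), and at 27 months replicate 0 was low in Ier2 (0.442), Jun (9.42), Junb (0.0573) and Nr4a1 (1.76). High values there were Fos in replicate 2 of 12 months (71.3 CPM), Egr1 (71.1) and Egr3 (9.60) in replicate 2 of 18 months, and Egr3 in replicate 1 of 24 months (5.72). In the male diaphragm replicate 2 of 6 months was low in Fosb (0.0786 CPM), Ier2 (0.236), Jun (13.1), Junb (0.0786) and Nr4a1 (0.813). Also low were Nr4a1 in replicate 4 of 12 months (8.52 CPM), Jun (15.5) and Junb (0.760) in replicate 6 of 24 months, and Ier2 (0.520), Jun (8.42) and Junb (0.0433) in replicate 6 of 27 months. Egr3 in replicate 0 of 18 months was high (4.57 CPM).

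In the female gastrocnemius the libraries far from their group were replicate 1 of 12 months for Junb (25.0 CPM), replicate 4 of 12 months for Atf3 (2.98), replicate 1 of 18 months for Egr1 (49.3), replicate 0 of 21 months for Fos (13.2) and replicate 2 of 24 months for Jun (85.001). At 27 months they were replicate 4 for Jun (62.0 CPM), replicate 5 for Egr1 (50.9) and replicate 7 for Fosb (0.485). In males they were Egr1 in replicate 4 of 12 months (30.1 CPM), Fosb in replicate 5 of 18 months (9.70), and Junb in replicate 1 (49.7) and Ier2 in replicate 9 (5.82) of 27 months. In the female soleus Ier2 in replicate 1 of 18 months (8.78 CPM) and Junb in replicate 3 of 24 months (31.8) stood out. In the male soleus replicate 5 of 18 months was high in Egr1 (141 CPM), Egr3 (8.87), Fosb (50.2) and Ier2 (10.037), Fosb was at 0 in replicate 5 of 12 months (which allows up to 0.0669 CPM, counting error only), and Egr3 was low in replicate 0 of 21 months (0.642). In the tibialis anterior of females Ier2 was high in replicate 0 of 6 months (10.7 CPM), Atf3 (119) and Jun (192) in replicate 7 of 12 months, and Egr3 in replicate 4 of 24 months (4.39). In males Atf3 (39.3 CPM) and Jun (116) were high in replicate 0 of 6 months, and Egr1 was low in replicate 0 of 21 months (8.91).

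The course with age differed between the sexes for 8 members in gastrocnemius, 8 in soleus, 7 in tibialis anterior and 5 in diaphragm, and between the muscles for 1 member in males, by the interaction tests of the report.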

How the results depend on the processing

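Calls with age (over 50 per muscle and sex) were 0, 4, 8 and 8 in females (diaphragm, gastrocnemius, soleus, tibialis anterior) and 6, 12, 1 and 8 in males. Under Bonferroni adjustment they were 2, 0 and 0 in the female limb muscles, in that order, and 0, 1, 0 and 0 in the 4 male muscles. With an adjusted p alone the female gastrocnemius had 7. Limma-voom gave 0 in male soleus, 1 in female and 2 in male tibialis anterior, and DESeq2 gave 1 in female diaphragm and 7 in male soleus. The run of sample numbers gave 5 in male soleus. Without 21 months, which removes that age's calls, male muscles had 1, 4, 0 and 3 and the female soleus 4. Without the 10 libraries apart the female diaphragm had 3. With 1 library left out in each of 48 refits the counts ran from 0 to 1, 4 to 5, 8 to 12 and 0 to 10 in females and from 5 to 6, 11 to 13, 0 to 5 and 6 to 9 in males. The 0 came without replicate 0 of 6 months in female tibialis anterior and without replicate 3 of 6 months in male soleus, and the 5 in male soleus without replicate 0 of 21 months. The soleus count of 12 came without replicate 4 of 6 months. A single gene reversed: Junb in the female diaphragm at 18 months had 0.15, and -0.057 without the libraries apart, neither past the threshold.

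With the replicate number as a block, calls with age were 3 in male diaphragm, 1 in female and 5 in male tibialis anterior, and in the other 5 sets 0, 4, 11, 8 and 1 (female diaphragm, female and male gastrocnemius, female and male soleus). For the sexes the block gave 1, 1 and 0 in diaphragm, gastrocnemius and soleus. These blocks join different mice, since a mouse has 1 sex and was killed at 1 age. Between ages, same-numbered libraries of a muscle and sex had a median r over the other genes of 0.003 to 0.02. Between muscles limma-voom with the block gave 3 for diaphragm and tibialis anterior and 0 for gastrocnemius and tibialis anterior; the edgeR fit with that block was not run. Over all genes, libraries of 2 muscles with the same number correlated with a median r of 0.01 in pairs with diaphragm and 0.04, 0.08 and 0.09 in limb pairs. Not every pair was above 0.1, so the numbers were not taken to pair the samples, but same-numbered limb libraries were more alike than others (r above 0.1 in 32.0% to 47.1% against 8.92% to 14.5%).

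Between muscles (3, 3, 6, 5, 2 and 4 calls in the order of the report) an adjusted p alone gave 8 for diaphragm and gastrocnemius, 8 for gastrocnemius and soleus, 7 for gastrocnemius and tibialis anterior and 8 for soleus and tibialis anterior. Bonferroni gave 3 for gastrocnemius and soleus and 1 for gastrocnemius and tibialis anterior, where limma-voom gave 0 and relative log expression scaling 1. Between the sexes (5, 2, 3 and 1) limma-voom gave 2, 1 and 1 in the first 3 muscles, Bonferroni 1, 1, 0 and 0, an adjusted p alone 6 in gastrocnemius and 5 in soleus, and the fits without 21 months 1, 1, 0 and 4. For the interaction of sex and age (5, 8, 8 and 7) Bonferroni gave 3 in diaphragm and 4 in soleus, limma-voom 3 in tibialis anterior, and the fits without 21 months 0, 4 and 4 in diaphragm, gastrocnemius and soleus. For muscle and age, females had 2 without the libraries apart, and males had 0 by limma-voom, Bonferroni or without 21 months and 2 by relative log expression scaling. The causes were not tested. Depth limits only members near 0, such as Fosb.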
